A study of Mus musculus with 5 samples.

Results

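Pecam1, Cdh5, Kdr, Flt1, Emcn, Fabp4, Egfl7, Vwf, Plvap and Tie1, 10 genes of endothelial identity that include the VEGF receptors, were followed through spatial transcriptomes of the injured newborn mouse heart. They were taken by symbol from the expression tables of the 5 heart sections, and all 10 were present among the 13711 genes that the tables share. Each section came from a wild-type C57BL/6 mouse that was operated on postnatal day 1, either by ligation of the left anterior descending coronary artery (myocardial infarction, MI) or by a sham operation. Hearts taken 3 days after surgery gave 1 sham and 1 MI section, and hearts taken 7 days after surgery gave 1 sham and 2 MI sections, all cut 200 µm below the suture or at the equivalent level in sham hearts. The MI day 7 sections were independent biological samples, and every other group was a single biological sample, so p-values rest on few sections. A Visium spot is a small region of tissue that can hold several cells, and the 3364 spots of the 5 sections were averaged within a section before sections were compared.

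Blood vessels of the heart are lined by endothelial cells, and the ventricular cavity by endocardial cells, a separate endothelial population. Both carry the receptors through which vascular endothelial growth factors (VEGFs) act. Kdr (VEGFR2) is the main signalling receptor of VEGF-A, Flt1 (VEGFR1) binds the same ligand and also exists as a soluble form that traps it, and Tie1 is an orphan receptor that acts with the angiopoietin receptor Tek. Pecam1 and Cdh5 (VE-cadherin) join endothelial cells to each other, and Egfl7 is a protein that endothelial cells secrete into their matrix. Fabp4, a fatty acid binding protein, is abundant in cardiac capillaries and also in adipocytes. Emcn is a sialomucin of capillary, venous and endocardial surfaces, Vwf is the clotting factor stored by endothelial cells and platelets, and Plvap forms the diaphragms of fenestrae and caveolae. The tables hold a single value per gene, so the membrane and soluble forms of Flt1 cannot be told apart, and a lower level in a spot can be fewer cells of a type or less RNA per cell, which cannot be told apart either.

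Both VEGF receptors among these genes lie on mouse chromosome 5 of build GRCm38, Kdr at chr5:75932827-75978458 and Flt1 at chr5:147561604-147726011, both on the minus strand. Emcn lies at chr3:137341067-137432185 on the plus strand, Plvap at chr8:71497765-71511752 on the minus strand and Vwf at chr6:125546774-125686679 on the plus strand. Promoter windows in RefSeq (GRCm38.p6), from 250 bases before to 50 bases after a start site, matched 5 of the 10 genes (Kdr, Flt1, Tie1, Egfl7 and Emcn). Of those 5, the windows of both VEGF receptors and of Emcn are printed, since Kdr and Emcn had their highest mean levels in different kinds of spots. Capitals mark AGGAAG on either strand, letters that contain the core bound by ETS factors, which regulate endothelial genes.
Kdr, chr5:75978406-75978705, minus strand: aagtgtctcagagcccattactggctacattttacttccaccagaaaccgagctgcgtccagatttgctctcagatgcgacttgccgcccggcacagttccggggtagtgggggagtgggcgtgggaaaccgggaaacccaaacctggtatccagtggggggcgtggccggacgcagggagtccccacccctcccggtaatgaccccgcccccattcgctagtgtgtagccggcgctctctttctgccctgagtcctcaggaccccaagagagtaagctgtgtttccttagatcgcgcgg
Flt1, chr5:147725962-147726261, minus strand: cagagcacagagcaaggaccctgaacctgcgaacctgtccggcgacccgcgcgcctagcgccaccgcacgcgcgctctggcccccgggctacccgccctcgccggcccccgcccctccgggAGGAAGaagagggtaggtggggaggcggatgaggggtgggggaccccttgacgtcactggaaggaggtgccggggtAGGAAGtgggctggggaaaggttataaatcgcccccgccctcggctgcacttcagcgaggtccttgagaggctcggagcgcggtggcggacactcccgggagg
Emcn, chr3:137340828-137341127, plus strand: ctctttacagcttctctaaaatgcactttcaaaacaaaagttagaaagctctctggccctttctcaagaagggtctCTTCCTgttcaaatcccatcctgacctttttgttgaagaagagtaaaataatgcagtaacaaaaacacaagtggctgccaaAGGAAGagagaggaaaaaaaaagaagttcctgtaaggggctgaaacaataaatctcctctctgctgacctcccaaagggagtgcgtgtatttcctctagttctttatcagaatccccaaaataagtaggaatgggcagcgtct
The Kdr window held no match, the Flt1 window held matches starting at positions -129 and -53 from the start site, and the Emcn window at -174 and -93. Across these genes the motif was in 5 of the 7 windows listed (4 of 5 genes), against 35.1% of 32544 promoter windows of the same length. AGATAA on either strand, a GATA factor motif in 11.2% of all windows, was in 0 of the 7. ACAATG on either strand, a SOX factor motif in 12.4%, was also in 0. No motif contains another, though their ends can overlap. These are matches of letters in a short window, and nothing about a factor follows from them.

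The sections held 376 to 960 spots, with a median of 20842.5 to 53940 UMIs per spot. The deepest section was MI day 7 replicate 1, which also had the largest share of mitochondrial transcripts, 24.7% against 13.8% to 15.8% elsewhere. Fabp4 transcripts were found in 100% of spots in every section and Cdh5 in 97.4% to 100%. Vwf was found in 23.2% to 42.7% of spots and Plvap in 16.8% to 39.4%, so their means rest on fewer spots. In the sham day 3 section, the only table of raw counts, Vwf had 190 UMIs (exact Poisson 95% interval 164 to 219, which covers counting error only) and Fabp4 had 17272. Levels below are means over the spots of a section in CPM, counts scaled to the same total in every spot.

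Over the sections, Pecam1 ranged from 111 to 127 CPM, Flt1 from 30.7 to 35.9 CPM, Tie1 from 57.5 to 76.7 CPM, Egfl7 from 178 to 203 CPM and Vwf from 18.3 to 27.3 CPM. The highest section exceeded the lowest by 1.13-fold for Cdh5 and by 3.02-fold for Plvap, with Emcn at 1.63-fold and Vwf at 1.497-fold. The median of this ratio was 1.25 over the 10 genes and 1.46 over the 12933 genes that reached 1 CPM in 2 or more sections, or 1.34 over the 2448 genes between 50 and 1000 CPM. The summed CPM of the 10 genes was 2313 (day 3) and 2330 (day 7) in sham, 2091 in MI at day 3, and 2029 and 2088 in MI at day 7. Fabp4 made up 59.2% to 65.0% of that sum, and without it the sum was 809, 847, 796, 827 and 805 in the same order. The sham sections were above all MI sections when Fabp4 was counted, and without it MI day 7 replicate 1 lay between them.

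**Figure D1:**
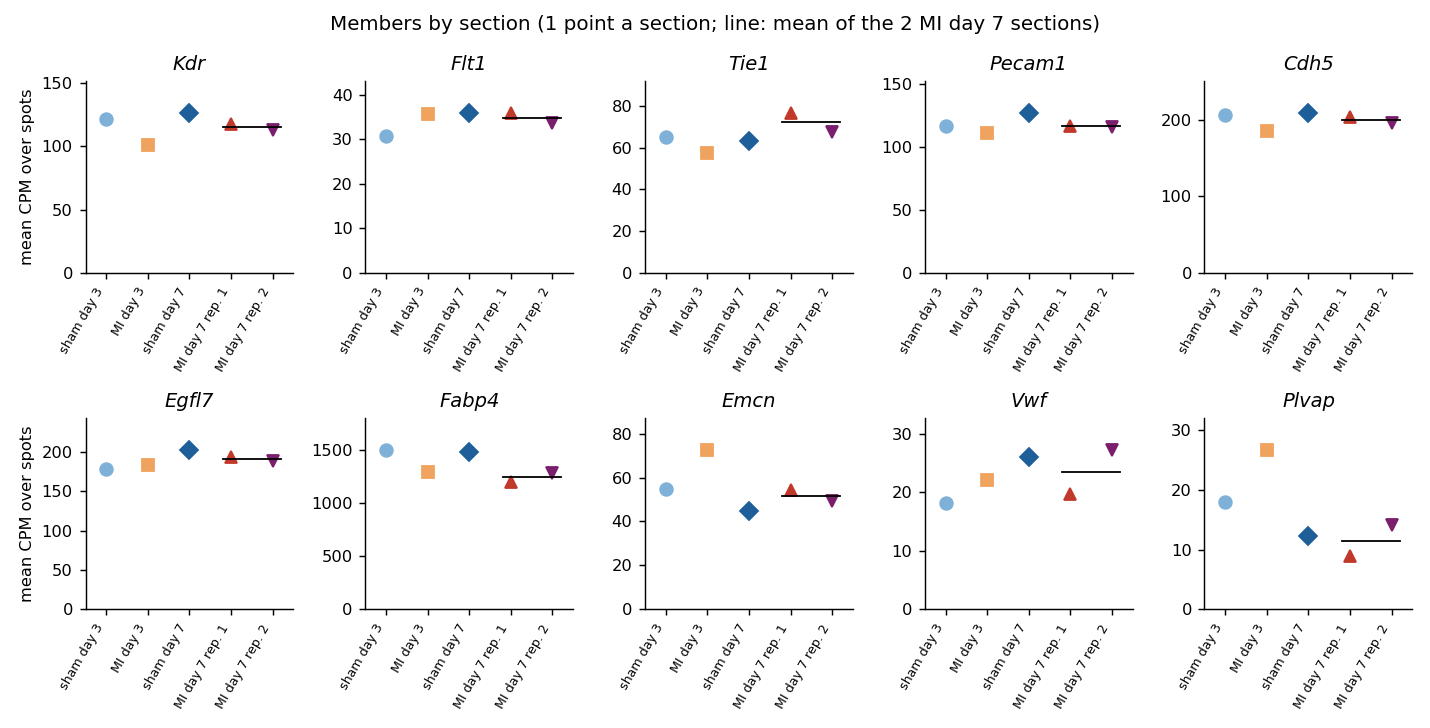
Mean CPM over spots of each of the 10 genes, 1 point per section and 1 panel per gene, with a line at the mean of the 2 MI day 7 sections. Fabp4 and Kdr sit lower in all 3 MI sections than in both sham sections, and Plvap and Emcn sit lower in all day 7 sections than in both day 3 sections.

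The effect of MI was compared with sham first, since the sections were made to follow the response to the infarct. Kdr was at 122 CPM (day 3) and 127 CPM (day 7) in sham, at 101 CPM in MI at day 3, and at 118 and 113 CPM in MI day 7 replicates 1 and 2 (115 ± 3.32, SD, n = 2). Fabp4 was at 1504 and 1482 CPM in sham, 1294 CPM in MI at day 3, and 1202 and 1283 CPM in MI at day 7 (1243 ± 57.7, SD, n = 2). Cdh5 was at 206 and 209 CPM in sham and at 186, 204 and 195 CPM in MI. For these 3 genes every MI section lay below both sham sections, as it did for 9.60% of all genes tested, and none of the 10 lay above both, against 6.84% of all genes.

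With day as a covariate, limma called 0 of the 10 genes between MI and sham at a Benjamini-Hochberg adjusted p of 0.05, where 0.00773% of all genes (1 of 12933) passed. At an unadjusted p of 0.05, 692 genes were higher and 356 lower, and 1 of the 10 was among them. That gene was Emcn, at 55.0 and 44.7 CPM in sham and at 72.7, 54.2 and 49.4 CPM in MI. Its log2 difference was 0.29 (SE 0.12, 95% interval 0.01 to 0.57, limma adjusted p = 0.608), and its sham and MI sections overlapped. Fabp4 differed by -0.24 (SE 0.13, limma adjusted p = 0.708) and Kdr by -0.19 (SE 0.11, limma adjusted p = 0.723). Plvap differed by 0.16 with an interval from -0.40 to 0.72, and the other 6 genes lay between -0.10 and 0.06. The median over all genes was -0.01. Summed macrophage markers were at 60.9 and 61.5 CPM in sham and 293, 89.6 and 118 CPM in MI, and summed fibroblast markers at 1935 and 2143 CPM in sham and 3026, 2614 and 3546 CPM in MI. Summed red cell markers were at 4413 and 6902 CPM in sham and 11388, 8570 and 10748 CPM in MI, with all 6 at an unadjusted p under 0.05 and 0 called by limma. The part of these cells in the lower Fabp4, Kdr and Cdh5 of the MI sections was not tested.

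The comparison within a single day gave no call among these genes either. At day 3, with 1 section against 1 and no test, Plvap was at 26.7 CPM in MI and 17.9 CPM in sham, a log2 ratio of 0.55. None of the 10 passed 1.5-fold there, against 8.64% of genes past it upward and 2.62% downward. With spots summed in place of averaged, the Plvap ratio was 0.65, past 1.5-fold. The sham table of that day held raw counts and the MI table corrected ones, so operation and kind of table cannot be told apart. At day 7, where the spread came only from the 2 MI sections, limma called 0 of the 10, against 0.232% of genes (24 higher, and 6 lower, or 0.0464%), and 0 of the 10 had an unadjusted p under 0.05, against 314 genes higher and 218 lower. The largest differences at day 7 were Fabp4 at -0.26, Emcn at 0.21 and Tie1 at 0.18, with standard errors of 0.22 to 0.29 over the 10 genes. The MI effect of day 7 minus that of day 3 was called by limma for 0 of the 10, against 0.425% of genes (8 higher, or 0.0619%, and 47 lower), with Plvap at -0.69 (SE 0.38).

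For time after surgery, Plvap and Emcn were lower in the later sections. Plvap was at 17.9 CPM in sham and 26.7 CPM in MI at day 3, and at 12.3 CPM in sham and 8.84 and 14.05 CPM in MI at day 7. Emcn was at 55.0 and 72.7 CPM at day 3 and at 44.7, 54.2 and 49.4 CPM at day 7. Every day 7 section lay below both day 3 sections for these genes, a pattern that 38.9% of all genes shared, and Egfl7 was the only one of the 10 with all day 7 sections above (189 to 203 CPM against 178 and 184), against 5.79% of genes.

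In the same limma fit the day coefficient was -0.89 for Plvap (SE 0.24, 95% interval -1.45 to -0.34, adjusted p = 0.116) and -0.40 for Emcn (SE 0.12, adjusted p = 0.129). The median over all genes was -0.18. Of the 10 genes, 0 passed the adjusted p, against 0.595% of genes (32 higher, and 45 lower, or 0.348%), and 2 had an unadjusted p under 0.05, as did 431 genes upward and 2810 downward. Leaving out either sham section left the same contrast of 1 MI day 3 section with the 2 MI day 7 sections, in which Plvap was at -1.19 (limma adjusted p = 0.00813 without sham day 3 and 0.00748 without sham day 7, where 4.85% and 4.95% of genes were lower). Leaving out MI day 3 left 1 sham section against 1, at -0.50 (limma adjusted p = 0.709). In each of these fits the spread came from the MI day 7 pair. Vwf, Tie1 and Kdr had day coefficients of 0.24, 0.17 and 0.13, none past the test. With median-of-ratios scaling, which put the median of all genes near 0 (-0.0052), these were 0.43, 0.36 and 0.33, Emcn was -0.21 and Plvap -0.71. Of the 10 genes 7 then had an unadjusted p under 0.05, as did 1485 of 12942 genes upward and 1207 downward. With that scaling 0 of the 10 passed the adjusted p.

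Within sections, the 10 genes fell into sets by the cell type that the authors' scores gave the highest share of a spot. The scores are estimates by label transfer from single-nucleus data, and EC-dominant and EndoEC-dominant spots are those where the endothelial (EC) or the endocardial (EndoEC) score was the highest of 11. They were made from these expression values, so what follows is a description with no test. EC-dominant spots numbered 22 to 80 per section and EndoEC-dominant spots 32 to 48.

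In EC-dominant spots, 7 of the 10 genes were higher than in all other spots of the same section in all 5 sections, as were 7.17% of all genes. At day 3, Kdr was at 163 CPM in EC-dominant and 119 CPM in other spots under sham and at 153 and 97.7 CPM under MI. In sham at day 7 it was at 155 and 124 CPM. In MI day 7 it was at 144 and 114 CPM in replicate 1 and at 166 and 111 CPM in replicate 2. The mean log2 difference over sections was 0.46 ± 0.14 for Kdr and 0.58 ± 0.10 for Fabp4 (SD, n = 5), with Egfl7 at 0.43, Flt1 at 0.41, Tie1 at 0.40, Cdh5 at 0.36 and Pecam1 at 0.22. None reached 1.5-fold in every section, which 0.00769% of genes did. Emcn was higher in 4 of 5 sections with a mean of 0.17, while Vwf (-0.43) and Plvap (-1.09) were lower in 4 of 5. None of the 10 was lower in every section, against 3.35% of genes.

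The EndoEC-dominant spots held the other set. Plvap was at 84.5 CPM there and 11.4 CPM elsewhere under sham at day 3, at 113 and 18.7 CPM under MI at day 3 and at 78.9 and 9.22 CPM under sham at day 7. In MI day 7 it was at 49.9 and 5.99 CPM in replicate 1 and at 67.6 and 11.7 CPM in replicate 2. The mean log2 difference was 2.71 ± 0.23 for Plvap, 2.22 ± 0.74 for Vwf and 1.24 ± 0.48 for Emcn (SD, n = 5), and these 3 genes were at least 1.5-fold higher in every section, as were 0.614% of all genes. Pecam1 (0.32) and Tie1 (0.50) were also higher in every section, which makes 5 genes against 9.27% of all genes. Kdr (-0.40) and Fabp4 (-0.38) were lower in every section, against 5.19% of genes, with Kdr at 99.05 and 124 CPM in EndoEC-dominant and other spots of sham day 3 and at 73.3 and 103 CPM in MI day 3. Cdh5 (-0.04) and Egfl7 (0.09) had no common direction over the sections.

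**Figure D2:**
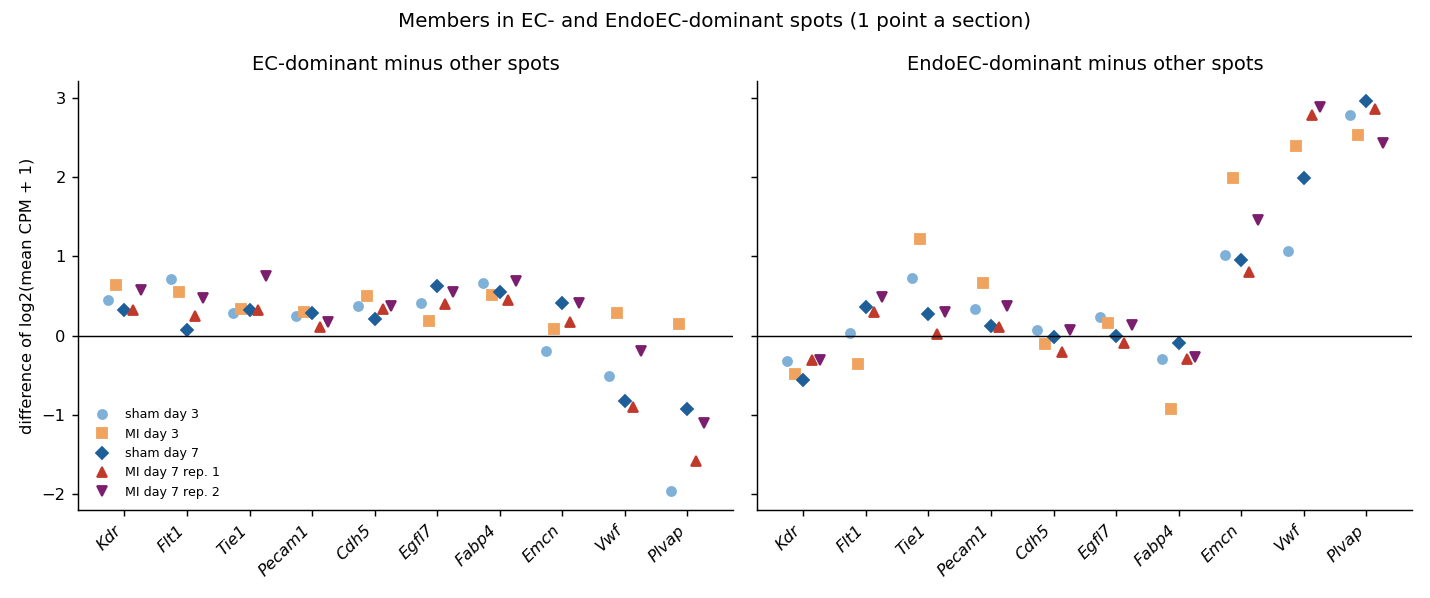
Difference of log2(mean CPM + 1) between EC-dominant spots and all other spots (left) and between EndoEC-dominant spots and all other spots (right) for each gene, 1 point per section, with a line at 0. Vwf, Plvap and Emcn lie highest on the right in all 5 sections, while Kdr and Fabp4 lie above 0 on the left and below 0 on the right in all 5.

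Set directly against each other, EC-dominant spots exceeded EndoEC-dominant spots in every section for Fabp4 (mean log2 difference 0.89), Kdr (0.80), Cdh5 (0.36) and Egfl7 (0.32), a direction 6.44% of genes shared. EndoEC-dominant spots were higher in every section for Plvap (-3.31), Vwf (-2.31) and Emcn (-0.95), as for 6.81% of genes, and by at least 1.5-fold for Plvap and Vwf, as for 0.782%. Of the 4 genes higher in EC-dominant spots, Fabp4 was so by at least 1.5-fold in every section, as were 0.215% of genes. For the VEGF receptors, EC-dominant spots exceeded EndoEC-dominant spots in 5 of 5 sections for Kdr (0.80 ± 0.17, SD, n = 5) and in 2 of 5 for Flt1 (0.23 ± 0.48, SD, n = 5). The difference between the receptors was not tested.

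Spot by spot, the same sets appeared as rank correlations, which are descriptions across spots of 1 library that share depth and tissue position. Vwf and Plvap had the highest Spearman's rho of the 45 pairs, with a mean of 0.32 over the 5 sections (0.26 to 0.38, over 376 to 960 spots each). Fabp4 was next, with Egfl7 (0.28), Kdr (0.25) and Cdh5 (0.24), and Emcn with Plvap had 0.22. Fabp4 and Plvap had the lowest, -0.19 (-0.29 to -0.11). Of the 45 pairs, 39 had a mean above 0 and 29 were above 0 in all 5 sections. Fabp4 clustered most in space by Moran's I over neighbouring spots, with a mean of 0.33 (0.17 to 0.60), followed by Plvap at 0.22 and Vwf at 0.19, and the other 7 genes had means of 0.01 to 0.06.

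Of the 5024 genes that averaged 20 CPM or more in every section, those outside the 10 whose CPM followed the summed CPM of the 10 most closely over spots were Aplnr (mean rho 0.37), Cav1 (0.34), Aqp1 (0.29), Gng11 (0.29), Cavin2 (0.28), Gpihbp1 (0.28), Cd36 (0.28), Mest (0.25), Mb (0.24) and Cldn5 (0.24). Fabp4 dominates that sum. With a mean of ranks of the other 9 genes, chosen after the data were seen, the leading genes were Fabp5 (0.29), Col4a1 (0.25), Ramp2 (0.24) and Tek (0.23).

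CM4 is the cardiomyocyte state that the study followed as the one that enters the cell cycle after injury, and CM4-dominant spots mark where its score was highest. Spots within 2.5 spot spacings of a CM4-dominant spot (near) were compared with spots over 4.5 spacings from all of them (far), leaving out the CM4-dominant spots. The MI sections held 128, 282 and 272 near spots and 110, 143 and 242 far spots (day 3, then day 7 replicates 1 and 2).

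Plvap was higher near CM4-dominant spots in all 3 MI sections, at 44.5 CPM near and 14.3 CPM far at day 3, 13.6 and 3.66 CPM in day 7 replicate 1, and 19.1 and 11.9 CPM in replicate 2. In the sham sections it was at 18.4 and 13.4 CPM at day 3 and at 11.01 and 9.93 CPM at day 7. Emcn was at 90.5 and 60.4 CPM in MI day 3, 57.5 and 47.7 CPM in replicate 1 and 51.8 and 46.0 CPM in replicate 2, and in sham at 56.3 and 48.2 CPM (day 3) and 42.2 and 38.3 CPM (day 7). Both genes were higher near in each MI and each sham section, and near and far values overlapped between sections for both. In MI sections limma called Plvap (log2 difference 1.29, SE 0.19, 95% interval 0.88 to 1.70, adjusted p = 0.000727) and Emcn (0.34, SE 0.10, adjusted p = 0.0285) higher near, 2 of the 10 genes, against 18.9% of all 13120 genes tested. The median over all genes was 0.25, so Emcn exceeded it by 0.08 and Plvap by 1.03. The MI minus sham difference of Emcn was 0.16 (limma adjusted p = 0.618), so its excess near was not shown to differ between MI and sham. With median-of-ratios scaling, where 2.71% of genes were called higher and 3.46% lower, Plvap stayed called higher (1.04, limma adjusted p = 0.00794), Emcn was not called (0.07, limma adjusted p = 0.737), and Cdh5 (-0.34, limma adjusted p = 0.0249) and Fabp4 (-0.41, limma adjusted p = 0.0339) were called lower.

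The near spots differed from the far spots in more than distance. In MI sections the mean FB (fibroblast) score was 15.1%, 20.3% and 20.7% near and 0.941%, 3.03% and 6.69% far, and the score of CM1, another cardiomyocyte state, was 29.2%, 32.4% and 40.6% near and 72.7%, 67.5% and 53.0% far. Spots at the tissue edge were 10.2%, 7.80% and 14.7% of near and 54.5%, 38.5% and 29.3% of far spots. The mean EndoEC score was 12.2%, 7.60% and 3.10% near and 5.32%, 6.79% and 7.45% far. The part of composition in the Plvap difference was not tested beyond splitting spots by dominant score, which follows.

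Within EndoEC-dominant spots, Plvap was at 134 CPM near (19 spots) and 34.2 CPM far (7 spots) in MI day 3, 59.1 (20 spots) and 24.98 CPM (12 spots) in MI day 7 replicate 1, and 129 (6 spots) and 51.0 CPM (21 spots) in replicate 2. In the sham day 7 section the order was the other way, 50.1 CPM near (21 spots) and 85.3 CPM far (8 spots), and sham day 3 had fewer than 5 such far spots. In CM1-dominant spots Plvap was at 9.59 and 14.4 CPM in MI day 3, 3.53 and 1.38 CPM in replicate 1 and 8.37 and 6.87 CPM in replicate 2. With CM1-dominant spots alone the log2 difference was 0.21 (limma adjusted p = 0.662), the only 1 of 14 alternatives without a call for Plvap. Emcn was called in 7 of 14, and without the MI day 3 section it was 0.22 (limma adjusted p = 0.0969).

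By distance, Plvap did not peak at the CM4-dominant spots themselves. In MI day 3 it was at 22.4 CPM in CM4-dominant spots, 39.8 CPM within 1.5 spacings, 51.1 CPM from 1.5 to 2.5, 19.2 CPM from 2.5 to 4.5 and 14.3 CPM beyond. In MI day 7 replicate 1 the order was 4.85, 15.0, 11.9, 7.24 and 3.66 CPM, and in replicate 2 it was 6.56, 20.8, 17.0, 12.95 and 11.9 CPM. The highest band thus lay within 2.5 spacings in all 3 MI sections. In the sham sections the bands ran 14.8, 13.7, 24.0, 20.2 and 13.4 CPM at day 3 and 3.67, 9.65, 12.2, 16.4 and 9.93 CPM at day 7, with the highest band from 1.5 to 2.5 spacings at day 3 and from 2.5 to 4.5 at day 7.

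**Figure D3:**
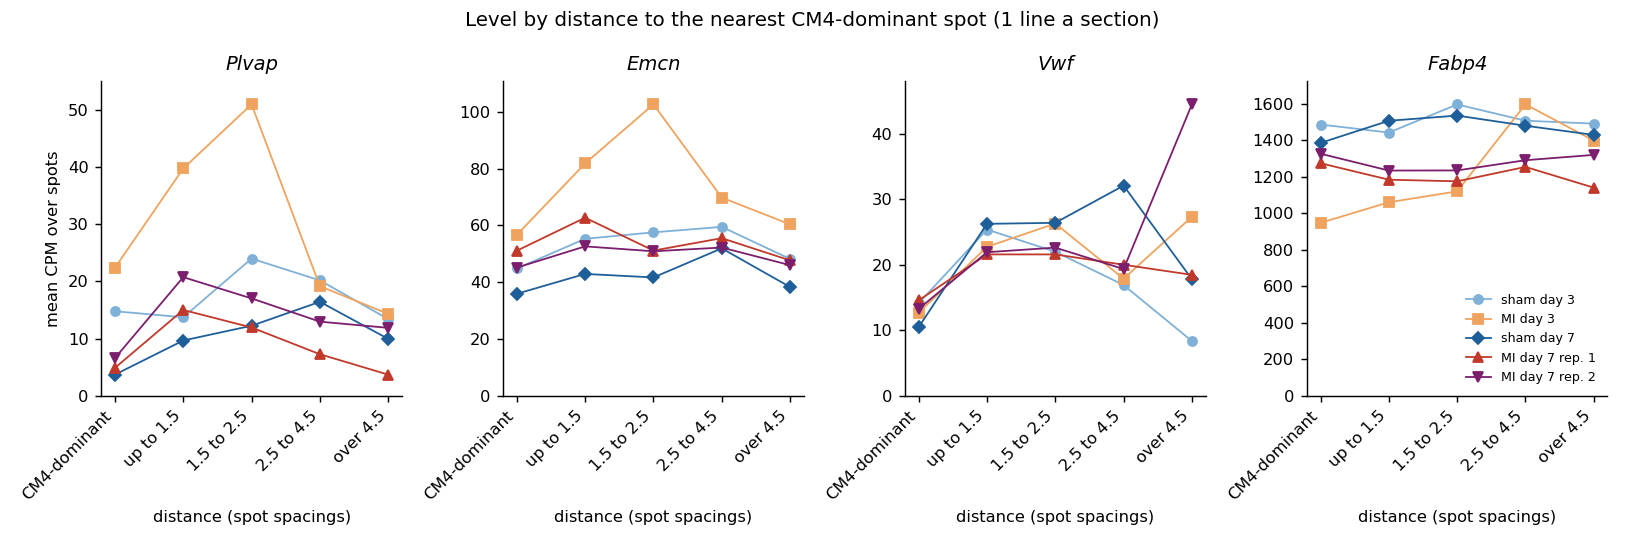
Mean CPM of Plvap, Emcn, Vwf and Fabp4 over spots in 5 bands of distance to the nearest CM4-dominant spot, in spot spacings, 1 line per section. Plvap is highest within 2.5 spacings in each MI section, reaching 51.1 CPM in MI day 3, and Vwf is at 44.5 CPM in the far band of MI day 7 replicate 2.

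Neither VEGF receptor passed the test by distance in the MI sections. Kdr was at 94.0 and 102 CPM near and far in MI day 3, 118 and 108 CPM in replicate 1 and 108 and 119 CPM in replicate 2, with a log2 difference of -0.04 (SE 0.08, 95% interval -0.21 to 0.13). With median-of-ratios scaling it was -0.31 (limma adjusted p = 0.0526). Then 8 of the 10 genes had an unadjusted p under 0.05, as did 1393 of 13090 genes upward and 1504 downward. Flt1 differed by 0.19, below the median of all genes, and by -0.07 with that scaling. Pecam1, Cdh5, Egfl7 and Tie1 were between -0.07 and 0.02. Fabp4 was at 1084 and 1397 CPM near and far in MI day 3, 1179 and 1139 CPM in replicate 1 and 1233 and 1319 CPM in replicate 2, a log2 difference of -0.14 (SE 0.10, limma adjusted p = 0.305).

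Vwf was the gene whose difference by distance itself differed between MI and sham. Near and far levels were 23.8 and 8.31 CPM in sham day 3 and 26.3 and 17.8 CPM in sham day 7. In MI they were 24.2 and 27.3 CPM at day 3, 21.5 and 18.4 CPM in day 7 replicate 1 and 22.2 and 44.5 CPM in replicate 2. The log2 near minus far difference was 1.41 and 0.54 in sham and -0.17, 0.22 and -0.97 in MI, without overlap. The MI minus sham difference was -1.29 (SE 0.30, 95% interval -1.90 to -0.67, limma adjusted p = 0.0346), 1 of the 10 genes called lower against 0.135% of all 13307 genes, and the median over all genes was 0.22. It was called in 7 of 16 alternatives, median-of-ratios scaling among them (-1.52, 0.174% of genes lower), over which it ranged from -1.72 to -0.43 (limma adjusted p = 0.00130 to 0.627). Leaving out the sham day 3 section, the only table of raw counts, gave -0.85 (limma adjusted p = 0.627). Leaving out MI day 7 replicate 2 gave -0.95 (limma adjusted p = 0.112).

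In MI day 7 replicate 2, Vwf was at 45.9 CPM in the 163 edge spots and 22.5 CPM in interior spots, against 24.1 and 18.9 CPM in replicate 1. In sham day 7 it was at 37.8 CPM in edge and 24.3 CPM in interior spots, and in both day 3 sections edge and interior differed little (17.7 and 18.4 CPM in sham, 21.8 and 22.3 CPM in MI). In the MI sections alone the Vwf difference was -0.31 (SE 0.17, limma adjusted p = 0.197). It was 0.02 with replicate 2 of MI day 7 left out, and with replicate 1 left out it was -0.57 and called (limma adjusted p = 0.00881, 0.746% of genes lower). In CM1-dominant spots alone Vwf was called lower near (-0.93, limma adjusted p = 0.0100, 0.186% of genes lower). Platelet and megakaryocyte markers, whose cells also hold Vwf, summed to 51.5, 35.7 and 37.8 CPM near and 23.7, 42.1 and 24.6 CPM far in the MI sections over the 3 of 6 markers shared by all tables. Pf4 made up most of this sum. Over whole MI sections Pf4 was at 29.9, 32.4 and 27.8 CPM, where the sum was 34.7, 37.2 and 32.6 CPM. The part of these cells in the Vwf difference was not tested. Plvap had an MI minus sham difference of 1.01 (SE 0.30, limma adjusted p = 0.112), not past the test, which 0.999% of genes passed upward, and was called in 3 of 16 alternatives.

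**Figure D4:**
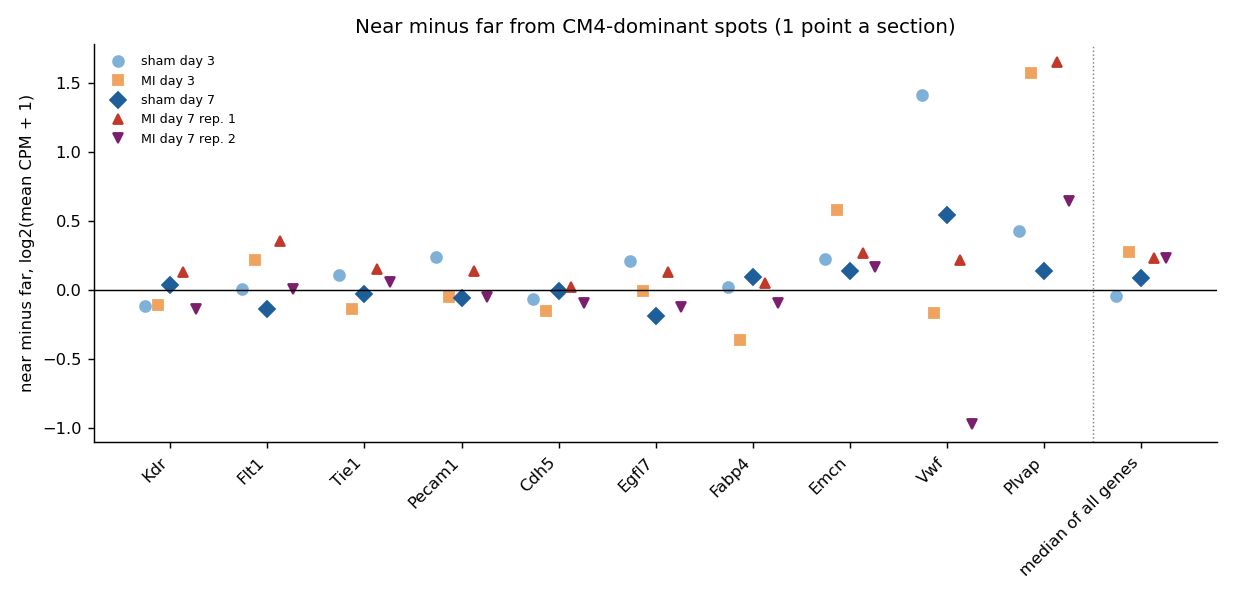
Difference of log2(mean CPM + 1) between spots near and far from CM4-dominant spots for each gene, 1 point per section, beside the median of all genes. The 3 MI sections are above both sham sections for Plvap (0.64 to 1.65 against 0.14 and 0.43) and below both for Vwf.

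The other genes of the pathway and of the vessel wall give the setting. Of 8 VEGF ligands and receptors outside the 10 (Vegfa, Vegfb, Vegfc, Vegfd, Pgf, Nrp1, Nrp2 and Flt4), 0 passed limma in any comparison, with 2 at an unadjusted p under 0.05 near against far in MI and 0 in the other tests. Near against far in MI, 4939 of 13120 genes were under that p upward and 130 downward. Vegfb, a ligand of Flt1 and the gene of this list with the highest mean, was at 276 and 350 CPM in sham and 233, 207 and 302 CPM in MI. Of 29 other endothelial genes, 4 were called higher near CM4-dominant spots in MI, a smaller share than the 18.9% of all genes called higher: Dll4, a Notch ligand of sprouting and arterial cells (0.45), Mmrn2 (0.34), Cd34 (0.30) and Eng, a TGF-beta co-receptor (0.26, where the median over all genes was 0.25). Aqp1, a water channel, was called lower (-0.43, limma adjusted p = 0.0353). With median-of-ratios scaling 0 were called higher and 5 lower. That scaling also called Cldn5 lower in MI minus sham (-0.74, limma adjusted p = 0.0406). Ly6c1 (0.99) and Robo4 (0.71) were called higher at day 7 than at day 3 with it. The main fit called 0 of the 29 in either comparison. At day 7 Apln, the ligand of Aplnr, was at 43.5 CPM in the only sham section against 19.9 and 19.95 CPM in MI (-1.09, SE 0.22, limma adjusted p = 0.0414), with the spread between sham hearts not measured. The day 3 sections had 18.9 CPM in sham and 18.8 CPM in MI, and with median-of-ratios scaling, under which 0 genes were called at day 7, Apln was at -1.06 (limma adjusted p = 0.299).

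Endocardial markers, 7 of 8 of which could be fitted, had 4 called higher near in MI: Cytl1 (0.83), Npr3 (0.75), Cdh11 (0.46) and Cpe (0.29), where 18.9% of all genes were called higher and their median was 0.25. With median-of-ratios scaling 0 were called, with Cytl1 at 0.62 and Npr3 at 0.51 (limma adjusted p = 0.186 and 0.135). Their summed level was 408, 318 and 341 CPM near and 323, 218 and 309 CPM far. Of 6 arterial markers the gap junction genes Gja5 (1.04) and Gja4 (0.56) were called higher near. Gja5 was at 16.0 and 2.37 CPM near and far in MI day 3 and at 16.1 and 6.96 CPM in day 7 replicate 1. In replicate 2 it was lower near, at 13.7 and 17.4 CPM. It was higher near in both sham sections (24.7 and 17.4 CPM at day 3, 18.7 and 9.42 CPM at day 7). Of 6 lymphatic markers Pdpn was called higher (0.90) and the chemokine Ccl21a lower (-0.996). With median-of-ratios scaling Ccl21a kept its call (limma adjusted p = 0.0288). Gja5 at 0.79, Gja4 at 0.30 and Pdpn at 0.65 lost theirs (limma adjusted p = 0.181, 0.200 and 0.0557). In MI minus sham, Ccl21a (-2.07, limma adjusted p = 0.0267) and Pdpn (1.48, limma adjusted p = 0.0328) were called too. Ccl21a levels were low, at 1.11 and 2.62 CPM near and far in MI day 3 and 0.592 and 2.45 CPM in day 7 replicate 1. They were 0.528 and 2.25 CPM in replicate 2, 7.47 and 1.73 CPM in sham day 3, and 5.73 and 3.68 CPM in sham day 7. At day 7 Ccl21a was at 5.30 CPM in the only sham section and 1.01 and 1.24 CPM in MI (-1.57, limma adjusted p = 0.0161, the spread again from the MI pair alone). With median-of-ratios scaling Ccl21a kept its call in MI minus sham (-2.20, limma adjusted p = 0.0240). Pdpn at 1.26 (limma adjusted p = 0.105) and Ccl21a at day 7 at -1.57 (limma adjusted p = 0.285) lost theirs with values close to those above. Venous markers, 3 of 4 of which could be fitted, had 0 called by limma in any test, with at most 1 at an unadjusted p under 0.05. With median-of-ratios scaling Aplnr, which is also in the other endothelial list, was called lower near in MI (-0.54, limma adjusted p = 0.0151).

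Markers of other cells also differed by distance. All 6 fibroblast markers were called higher near in MI, led by Col1a2 (1.10), and 5 with median-of-ratios scaling. Their summed level in MI was 4265, 3282 and 4715 CPM near and 2279, 1842 and 2324 CPM far. Of 7 macrophage markers 6 were called higher near, led by C1qb (1.53) and C1qa (1.42), and 2 with median-of-ratios scaling. Among those that lost the call, Fcgr1 was at 0.97, Cd68 at 0.91 and Adgre1 at 0.80 with that scaling (limma adjusted p = 0.115, 0.0868 and 0.0806). The macrophage markers summed to 544, 98.8 and 157 CPM near and 128, 78.3 and 51.1 CPM far. Plvap was also higher near in each MI section, with log2 differences of 1.57 (day 3), 1.65 (day 7 replicate 1) and 0.64 (replicate 2). The part of these cells in the Plvap difference was not tested. In MI minus sham, Lum (0.90), Col1a2 (0.67), Col1a1 (0.58) and C1qb (1.41) were called higher, and the haemoglobin genes Hba-a1 (-0.72) and Hbb-bt (-0.67) lower. With median-of-ratios scaling Lum, Hba-a1 and Hbb-bt kept their calls. Col1a2 at 0.42, Col1a1 at 0.34 and C1qb at 1.17 lost theirs (limma adjusted p = 0.293, 0.467 and 0.114). The MI minus sham difference of day 7 less that of day 3, where all groups but MI day 7 are 1 section and the spread came only from the MI day 7 pair, was called for the macrophage genes Fcgr1 (-2.70), Cd68 (-1.70) and Csf1r (-1.58). With median-of-ratios scaling these values were -2.59, -1.59 and -1.47 with the calls lost (limma adjusted p = 0.201, 0.382 and 0.296), a scaling under which 0 of all genes were called in that comparison. Of 6 cardiomyocyte markers Ryr2 was lower near (-0.37), of 6 mural markers Cspg4 (0.50) and Pdgfrb (0.25) were higher and Abcc9 (-0.44) lower, and of 6 red cell markers Hbb-bt was lower (-0.36). With median-of-ratios scaling Ryr2, Abcc9 and Hbb-bt kept their calls, while Cspg4 (0.24, limma adjusted p = 0.232) and Pdgfrb (-0.014, limma adjusted p = 0.953) lost theirs. That scaling also called the cardiomyocyte markers Pln (-0.64) and Tnni3 (-0.47) lower near. The red cell markers Hba-a1 (-0.57), Hba-a2 (-0.49) and Hbb-bs (-0.57) were called lower near with it as well. Of 6 adipocyte markers 0 were shared by the 5 tables. In sham day 3, whose table is raw, Adipoq, Plin1, Cidec, Cfd and Lep had 0 UMIs and Car3 had 2, where Fabp4 had 17272.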

How the data were processed

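Visium libraries of 5 sections were analysed. The labels and methods name Space Ranger with GRCm38 (mm10) for alignment and Seurat for the spots. The authors deposited, per section, an expression table and spot metadata. The sham day 3 table held raw UMI counts; those of the other 4 sections, as deposited, held a score (UMI counts corrected by sctransform and rounded), so no count test was run. The deposited metadata gave cell type scores (a fraction, by label transfer), raw UMI counts per spot and positions in image pixels.

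Each spot was scaled to CPM over the 13711 genes shared by the tables. Duplicated and date-turned names were left out. Section or zone means were fitted as log2(mean CPM + 1) with limma 3.58.1 (R 4.3.3; trend; two-sided; Benjamini-Hochberg over all genes tested; threshold 0.05), keeping genes whose mean reached 1 CPM in 2 or more columns. Fold changes are on that scale, which understates low genes. Near against far used within-section differences. The fits were tested on simulated data. Edge spots had fewer than 6 neighbours. The text names the 10 genes, list genes past the test (at most 5 per list, otherwise the highest), and the 10 genes most like their sum. Alternatives are given at the end. Members and lists were chosen with earlier results of these data known.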

Additional observations from a re-analysis of the deposited data

Results flagged for a closer look

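The Vwf difference between spots near and far from CM4-dominant spots is listed because a test of the difference itself separated MI from sham: the MI minus sham value was -1.29 on the log2 scale (limma adjusted p = 0.0346), from 3 MI and 2 sham sections. The call was lost in 9 of 16 alternatives, among them leaving out sham day 3, the only raw table (-0.85, limma adjusted p = 0.627), and far over 2.5 spacings (-0.43, limma adjusted p = 0.333).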

How the results depend on the processing

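No paired analysis was possible because the labels number replicates only for MI at day 7, so the groups share fewer than 2 numbers. Low-UMI spots left out was an alternative chosen after seeing the data. Of 182 values of the 22 gene differences at least as large as their standard error, 178 kept their direction, leaving out sections aside. The exceptions were Flt1 near against far at -0.073 (median-of-ratios), Fabp4 at 0.030 (CM1-dominant spots only), and Emcn in MI minus sham at -0.082 (median-of-ratios) and -0.024 (mitochondrial and haemoglobin genes left out). With sections left out in turn the day coefficient of Tie1 ran from -0.037 to 0.32 and near against far Vwf in MI from -0.57 to 0.023, the sign turning without MI day 3 and without MI day 7 replicate 2.

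Of the 10 genes, near against far in MI called 1, not 2, with mitochondrial and haemoglobin genes left out, far over 2.5 spacings, edge spots out, CM1-dominant spots only, or CM4-dominant spots with a CM4-dominant neighbour only. The 1 was Plvap, except that with CM1-dominant spots only it was Vwf, lower (-0.93). MI minus sham called 0, not 1 (Vwf, -1.29), with pseudocount 5, near within 1.5 spacings, edge spots out, CM1-dominant spots only, or low-UMI spots out, where Vwf was at -1.06, -1.36, -1.42, -1.51 and -1.38. The 1 was Plvap, and Vwf was lost, with far over 2.5 spacings (Vwf -0.43) and with the CM4 neighbour setting (-0.74). Summed values put 1 gene past 1.5-fold at day 3, not 0.

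Over all genes, the settings moved the calls as follows. MI against sham had 3 (median-of-ratios) and 0 (pseudocount 5), not 1. Day 7 against day 3 had 185 (median-of-ratios) and 213 (mitochondrial and haemoglobin genes out), not 77. MI against sham at day 7 had 0 under both of those and 87 with summed values, not 30. The difference between days had 0 under both, 130 (pseudocount 5), 158 (summed) and 87 (low-UMI spots out), not 55. Near against far had 808 (median-of-ratios), 695 (mitochondrial and haemoglobin genes out), 1254 (far over 2.5), 403 (edge out), 168 (CM1-dominant) and 1632 (CM4 neighbour), not 2528. MI minus sham had 49, 44, 100 (pseudocount 5), 89 (near within 1.5), 33 (edge out), 42 (CM1-dominant), 607 (CM4 neighbour) and 96 (low-UMI out), not 151. The causes were not tested.

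Leaving out sections in turn gave 0 to 366 genes for MI against sham, 32 to 758 genes and 0 to 1 of the 10 for day, 1572 to 2603 genes and 1 to 3 of the 10 for near against far, and 5 to 308 genes and 0 to 1 of the 10 for MI minus sham. A lone section was then assumed to vary like the others, and fits of 4 group means without an MI day 7 replicate had no residual degrees of freedom and gave values only. The few UMIs of Vwf and Plvap per spot limit precision. Sham day 3 is the 1 raw table beside 4 corrected ones, so the day 3 comparison cannot tell the operation from the kind of table.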
